A study of Mus musculus with 12 samples.

Results

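Autophagy genes were followed in mouse liver under endoplasmic reticulum (ER) stress. The 10 genes were chosen by name: Sqstm1, Nbr1, Map1lc3a, Map1lc3b, Gabarapl1, Ulk1, Wipi1, Becn1, Atg5 and Atg7. They are 10 of the 18193 genes that have a probe set of their own on the array, and 32 of its 45037 probe sets carry exactly 1 of these symbols. A probe set is a group of short probes that measures a transcript, and where a gene had several, the one with the highest mean over the 12 arrays gave its main value. All 10 genes were measured and none was taken out by a filter on low values.

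The livers came from wild-type (Atf6a+/+) and Atf6a-/- mice that had received tunicamycin (TM), which blocks N-linked glycosylation and so loads the ER with unfolded proteins, or the vehicle. ATF6a sits in the ER membrane and, once cut in the Golgi, releases a transcription factor that carries out part of the unfolded protein response. TM was dosed at 1 mg/kg in 150 mM dextrose by intraperitoneal injection, vehicle animals had dextrose alone, and livers were taken after 34 h. The 4 groups were wild-type vehicle, wild-type TM, Atf6a-/- vehicle and Atf6a-/- TM, with 3 animals each and 1 array per animal. The animals were of varying age and either sex, which the labels do not give per animal, and were fasted briefly before sacrifice. One field of the labels gives 8 h instead, whereas the titles and the protocol give 34 h. The RNA was from homogenate of whole liver, so that a smaller number of cells of a type and less RNA per cell cannot be told apart, and the Atf6a deletion was in the whole animal.

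Macroautophagy encloses cytoplasm, organelles or protein aggregates in a membrane that closes into an autophagosome and then fuses with a lysosome. It is started by the ULK1 kinase complex, which mTORC1 holds in check when nutrients are plentiful and AMPK activates when energy is short. A lipid kinase complex that contains Beclin 1 then makes phosphatidylinositol 3-phosphate (PI3P) on the growing membrane, WIPI proteins read that lipid, and the ATG7 and ATG5 machinery attaches ATG8 proteins (the LC3 and GABARAP families) to it. Cargo receptors such as p62, the product of Sqstm1, bind both ubiquitinated cargo and the ATG8 proteins and are degraded with the cargo. Liver uses autophagy during fasting to supply amino acids and to break down lipid droplets, and mRNA levels do not measure the flow through the pathway.

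The promoters are shown for the 4 genes called different between the genotypes after TM. Sqstm1 and Gabarapl1 were called higher, and Ulk1 and Atg7 lower, in Atf6a-/- livers. The arrays measured mRNA levels and not the use of these promoters. Each runs 5′ to 3′ on the strand of its gene from 250 bases before the start of the transcript to 50 after it, as RefSeq places it on GRCm38.p6. Sqstm1 lies at chr11:50210771-50211070 on the minus strand, Gabarapl1 at chr6:129532942-129533241 on the plus strand, Ulk1 at chr5:110810032-110810331 on the minus strand and Atg7 at chr6:114670846-114671145 on the plus strand. Capitals mark an E-box core, CACGTG, which is the center of the element that TFEB and TFE3 bind.
Sqstm1: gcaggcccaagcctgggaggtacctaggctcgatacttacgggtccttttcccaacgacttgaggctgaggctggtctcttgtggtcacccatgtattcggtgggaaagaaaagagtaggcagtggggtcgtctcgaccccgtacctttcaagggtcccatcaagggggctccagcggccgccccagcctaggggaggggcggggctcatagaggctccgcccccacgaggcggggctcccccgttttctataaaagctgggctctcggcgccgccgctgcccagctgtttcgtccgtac
Gabarapl1: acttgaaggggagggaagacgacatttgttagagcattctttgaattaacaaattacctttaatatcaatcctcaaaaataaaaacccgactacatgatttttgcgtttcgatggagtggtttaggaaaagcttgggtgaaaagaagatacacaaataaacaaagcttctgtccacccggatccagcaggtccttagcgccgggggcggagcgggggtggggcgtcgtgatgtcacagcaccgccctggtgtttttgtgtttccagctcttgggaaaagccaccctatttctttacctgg
Ulk1: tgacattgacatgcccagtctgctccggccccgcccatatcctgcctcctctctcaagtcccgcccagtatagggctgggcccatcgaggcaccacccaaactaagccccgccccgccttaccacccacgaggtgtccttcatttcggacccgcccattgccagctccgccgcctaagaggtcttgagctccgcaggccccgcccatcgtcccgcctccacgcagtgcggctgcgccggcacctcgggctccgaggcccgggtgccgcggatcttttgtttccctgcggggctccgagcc
Atg7: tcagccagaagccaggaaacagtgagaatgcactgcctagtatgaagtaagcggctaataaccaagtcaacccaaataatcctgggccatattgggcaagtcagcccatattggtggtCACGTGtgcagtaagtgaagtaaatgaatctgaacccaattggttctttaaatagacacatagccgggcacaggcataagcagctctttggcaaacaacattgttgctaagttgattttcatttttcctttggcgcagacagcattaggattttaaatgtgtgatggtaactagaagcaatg

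Of the 10 genes, 8 had a window in the promoter table, with 9 windows in all, and Map1lc3a and Becn1 had none. GC content was 63.3% for Sqstm1 and 68.0% for Ulk1 but 46.3% for Gabarapl1 and 42.7% for Atg7, against a median of 52.7% over 32851 promoters. The windows were searched on both strands for 4 motifs, and no 2 matches overlapped. CACGTG was found in Atg7, with its first base at -132 from the transcript start (the base just before the start being -1), and in Atg5, with its first base at -14, and 7.15% of all promoters of this length hold it. TGACNNNGC, the core of the antioxidant response element, was found in Map1lc3b (12.4% of all promoters), and TGACGTG, the core of an element that ATF6 binds, in 1 of both Nbr1 windows (2.01%). TGATGNAA, the core of the composite element of ATF4 and C/EBP factors, was in none of the 9 windows and in 3.97% of all promoters. A match describes these letters alone, and their absence says nothing of the factor.

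Levels are given as log2 signal after RMA, the array normalization of the authors, so that a difference of 1 between groups is a 2-fold change. A gene was called changed at an adjusted p under 0.05 in limma, a linear model fitted across all probe sets, and a difference over 1.5-fold. Errors of a difference are standard errors of that model, with 3 animals in each group.

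The targeted gene, Atf6, had log2 levels of 8.54, 8.42 and 8.49 in wild-type vehicle, 6.88, 6.85 and 6.60 in Atf6a-/- vehicle, 9.30, 9.72 and 9.49 in wild-type TM and 9.60, 9.81 and 9.23 in Atf6a-/- TM livers. Its level was lower in every Atf6a-/- vehicle liver than in every wild-type one (-1.71 ± 0.15, adjusted p = 0.00611), and the genotypes overlapped after TM. Its other 2 probe sets stood higher in Atf6a-/- than in wild-type livers after TM, against the deletion label, with no overlap, by 1.43 (2.70-fold, adjusted p = 3.03e-05, called) and by 0.53 (1.44-fold, adjusted p = 0.00442, under the fold limit), and gave -0.55 and -0.70 after vehicle, neither called. The labels do not say which part of the gene is deleted, and a probe set outside that part checks nothing, so the genotypes are those of the labels. The first principal component held 68.3% of the variance, and wild-type TM animal 2 lay at 29.53 on it, apart from the -12.86 and -11.85 of its group. Xist was high in animal 1 of the other 3 groups and in no wild-type TM animal, and a fit with Xist as a covariate changed no call of the 10 genes. The mean of 18 spike-in probe sets was 8.78 to 8.82 in Atf6a-/- TM, 8.85 to 9.18 in wild-type TM and 9.14 to 9.55 in vehicle arrays, and the 3′ minus 5′ difference of beta-actin was 0.88 to 1.00 in Atf6a-/- TM and 1.00 to 1.32 in the other arrays. How many genes were called higher or lower depended in part on the scaling. Shifting each array by the spike-ins moved the median response of all genes to 0.465 in Atf6a-/- mice, and shifting by Btf3 and Ppia, a pair of reference genes, moved it to -0.53. The Ppia probe set used for this shift is one that the platform shares with a pseudogene, which limits it as a reference.

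The TM response passed the threshold for 0 of the 10 autophagy genes in wild-type liver and for 4 of them in Atf6a-/- liver. These counts were not tested against the shares of all genes given beside them. In wild-type mice 0 of 10 passed, where 7.31% of all genes did, although Ulk1 and Becn1 had an unadjusted p under 0.05 in limma. The methods' t-test called 0 as well, with and without adjustment. In Atf6a-/- mice TM raised Sqstm1 and Becn1 and lowered Ulk1 and Atg7, which is 4 of 10 against 28.0% of all genes. Groups of animals did not overlap for 2 of 10 genes in the wild-type response (26.8% of all genes), 8 in the Atf6a-/- response (47.8%), 5 between genotypes after TM (35.7%) and 0 after vehicle (8.09%). After TM 4 of 10 differed between the genotypes, Sqstm1 and Gabarapl1 being higher and Ulk1 and Atg7 lower in Atf6a-/- livers, against 19.7% of all genes. After vehicle none of the 10 differed (0.00550% of all genes did, which is Atf6 alone), and none had an unadjusted p under 0.05. The 2 higher and 2 lower in Atf6a-/- mice became 4 and 1 with the spike-ins and 1 and 6 with Btf3 and Ppia, and those between genotypes after TM became 3 and 1 and 1 and 5. The response itself differed between the genotypes for 3 of 10, Sqstm1, Gabarapl1 and Ulk1, against 14.3% of all genes. The median difference of the 10 genes was 0.00 in the wild-type response, -0.24 in the Atf6a-/- response, -0.07 between genotypes after TM and 0.06 after vehicle, and over all genes these medians were -0.02, -0.01, 0.00 and 0.00. The Atf6a-/- TM animals are in both the Atf6a-/- response and the comparison of genotypes, so these are not independent of each other.

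**Figure D1:**
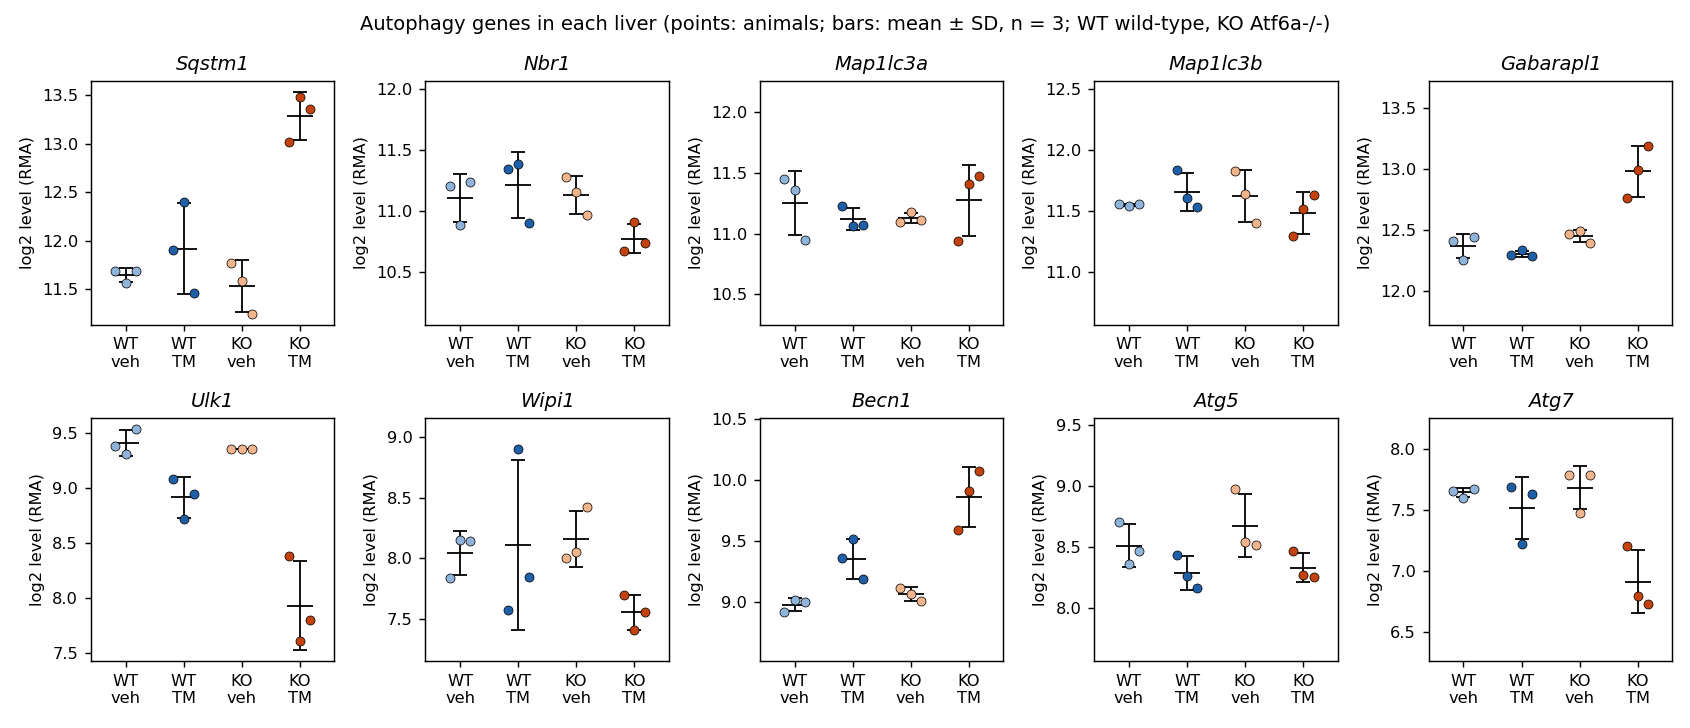
Log2 level (vertical axis, a separate range for each gene) of the 10 autophagy genes in each liver, with points for animals and bars for the group mean ± SD (n = 3). The 3 Atf6a-/- TM livers stand above all 9 others for Sqstm1, Gabarapl1 and Becn1 and below all 9 for Ulk1 and Atg7.

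Among the cargo receptors, Sqstm1 showed the largest difference of the 10 genes. The log2 level of Sqstm1 was 11.68, 11.56 and 11.69 in wild-type vehicle, 11.77, 11.59 and 11.25 in Atf6a-/- vehicle, 11.90, 12.40 and 11.46 in wild-type TM and 13.01, 13.49 and 13.36 in Atf6a-/- TM livers. Every Atf6a-/- TM liver was higher than every other liver, whereas the wild-type TM livers overlapped the vehicle livers. TM raised Sqstm1 3.37-fold in Atf6a-/- mice (1.75 ± 0.21, adjusted p = 5.15e-05), while the difference in wild-type mice was 0.27 ± 0.21 with a 95% interval from -0.20 to 0.74 (adjusted p = 0.590). After TM it was 2.58-fold higher in Atf6a-/- than in wild-type livers (1.37 ± 0.21, adjusted p = 7.13e-04), and the responses differed by 1.48 ± 0.30 (adjusted p = 0.00828). Without wild-type TM animal 2, the liver with the highest level of its group, these became 1.61 (adjusted p = 7.12e-05) and 1.72 (adjusted p = 6.88e-04). A second probe set had group means of 3.90 in wild-type vehicle, 4.03 in Atf6a-/- vehicle and 4.18 in wild-type TM livers, all below the highest array median of 4.71, and levels of 4.84, 5.41 and 4.62 in Atf6a-/- TM livers. It was called in Atf6a-/- mice and between genotypes after TM, but at such levels it gives no size, and its responses did not differ between genotypes past the threshold (adjusted p = 0.175).

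Nbr1 encodes another receptor for ubiquitinated cargo with a domain structure like that of p62. Its levels were 11.21, 10.88 and 11.24 in wild-type vehicle, 11.28, 11.15 and 10.97 in Atf6a-/- vehicle, 11.35, 11.39 and 10.90 in wild-type TM and 10.68, 10.91 and 10.74 in Atf6a-/- TM livers. The Atf6a-/- TM livers lay below their own vehicle group but touched the range of wild-type TM. No difference passed the threshold, with -0.36 ± 0.15 for the Atf6a-/- response (adjusted p = 0.0964) and -0.44 ± 0.15 between genotypes after TM (95% interval -0.76 to -0.12, adjusted p = 0.0609). Without wild-type TM animal 3, the lowest of its group, the latter was -0.59 and passed (adjusted p = 0.0151).

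Of the ATG8 genes, which encode the small proteins attached to the autophagosome membrane, Gabarapl1 alone of the 3 differed between genotypes. Its levels were 12.41, 12.26 and 12.45 in wild-type vehicle, 12.47, 12.49 and 12.39 in Atf6a-/- vehicle, 12.29, 12.34 and 12.29 in wild-type TM and 12.77, 12.99 and 13.19 in Atf6a-/- TM livers. The Atf6a-/- TM livers were above all others, and the wild-type TM livers lay within the range of their vehicle group. After TM it was 1.60-fold higher in Atf6a-/- livers (0.68 ± 0.11, adjusted p = 8.24e-04). The rise within Atf6a-/- mice passed the test but not the fold limit (0.53 ± 0.11, 1.44-fold, adjusted p = 0.00241), and the wild-type difference was -0.06 ± 0.11 (adjusted p = 0.837). The responses differed by 0.60 ± 0.15 (adjusted p = 0.0273), which is just past 1.5-fold. Without Atf6a-/- TM animal 3, the highest liver, the difference between genotypes after TM was 0.57 (adjusted p = 0.00324) and fell under the fold limit, and the difference in response was 0.49 (adjusted p = 0.0528). Without Atf6a-/- TM animal 1, the lowest of its group, the rise within Atf6a-/- mice passed both limits (0.64, adjusted p = 7.05e-04). The call for the difference in response was lost in 13 of 25 settings. These were quantile normalization again, cyclic loess, the shift by Btf3 and Ppia (0.15, adjusted p = 0.523), the mean of the probe sets, probe sets without a suffix, a variance trend, and leaving out Atf6a-/- TM animal 3, wild-type vehicle animal 1 or 3, Atf6a-/- vehicle animal 3, wild-type TM animal 1 or 3 or Atf6a-/- TM animal 2 (adjusted p of up to 0.0701 without an animal). With arrays shifted by Btf3 and Ppia the difference after TM was 0.25 (adjusted p = 0.132). The other Gabarapl1 probe set was higher in Atf6a-/- livers after TM by 0.70 (adjusted p = 0.00216).

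Map1lc3a and Map1lc3b encode LC3 proteins, whose lipid-bound form is the usual marker of autophagosomes. Map1lc3a had levels of 11.45, 11.36 and 10.95 in wild-type vehicle, 11.10, 11.18 and 11.11 in Atf6a-/- vehicle, 11.22, 11.06 and 11.07 in wild-type TM and 10.94, 11.41 and 11.47 in Atf6a-/- TM livers. All 4 groups overlapped, and the Atf6a-/- response of 0.15 ± 0.15 had a 95% interval from -0.19 to 0.48. Map1lc3b had levels of 11.55, 11.54 and 11.55 in wild-type vehicle, 11.83, 11.64 and 11.40 in Atf6a-/- vehicle, 11.83, 11.61 and 11.53 in wild-type TM and 11.30, 11.52 and 11.63 in Atf6a-/- TM livers. These groups overlapped too, and the response was 0.11 ± 0.13 in wild-type mice (adjusted p = 0.754) and -0.14 ± 0.13 in Atf6a-/- mice (adjusted p = 0.498). For this brightest probe set the interval of the response ran from -0.17 to 0.39 in wild-type and from -0.42 to 0.14 in Atf6a-/- mice. Both lie inside the 0.585 that corresponds to 1.5-fold. Of the 4 Map1lc3b probe sets one gave higher values after TM in both genotypes, 0.53 in wild-type mice (adjusted p = 0.205) and 0.56 in Atf6a-/- mice (adjusted p = 0.0773), without passing. Its groups did not overlap in either genotype, and its intervals, 0.06 to 1.01 and 0.09 to 1.04, reached past 1.5-fold. With arrays shifted by Btf3 and Ppia the brightest probe set was called lower, by -0.65 in Atf6a-/- mice and by -0.61 between genotypes after TM.

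Ulk1, which encodes the kinase that starts autophagosome formation, fell. Its levels were 9.38, 9.30 and 9.54 in wild-type vehicle, 9.35 in all 3 Atf6a-/- vehicle livers, 9.09, 8.72 and 8.95 in wild-type TM and 8.39, 7.61 and 7.80 in Atf6a-/- TM livers. Both TM groups lay below both vehicle groups, and every Atf6a-/- TM liver lay below every wild-type TM liver. TM lowered Ulk1 2.68-fold in Atf6a-/- mice (-1.42 ± 0.17, adjusted p = 4.58e-05), and in wild-type mice the difference was -0.49 ± 0.17 (95% interval -0.86 to -0.12, adjusted p = 0.127). Groups that do not overlap were seen in 26.8% of all genes for the wild-type response. After TM Ulk1 was 1.98-fold lower in Atf6a-/- livers (-0.98 ± 0.17, adjusted p = 0.00143), and the responses differed by -0.93 ± 0.24 (adjusted p = 0.0291). The first of these was -1.08 without wild-type TM animal 2 (adjusted p = 0.00118), whereas the difference in response kept its call only without that animal, wild-type vehicle animal 3 or Atf6a-/- TM animal 1, and its adjusted p was 0.0556 to 0.0718 without any of the other 9. The difference in response also lost its call with arrays shifted by the spike-ins (-0.80, adjusted p = 0.0616), and so in 10 of 25 settings. A second Ulk1 probe set fell in Atf6a-/- mice by 0.71 on the log2 scale (adjusted p = 0.00140), but was not called between genotypes after TM (-0.51, 1.42-fold, adjusted p = 0.0172) or in the difference of the responses (-0.50, adjusted p = 0.136).

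**Figure D2:**
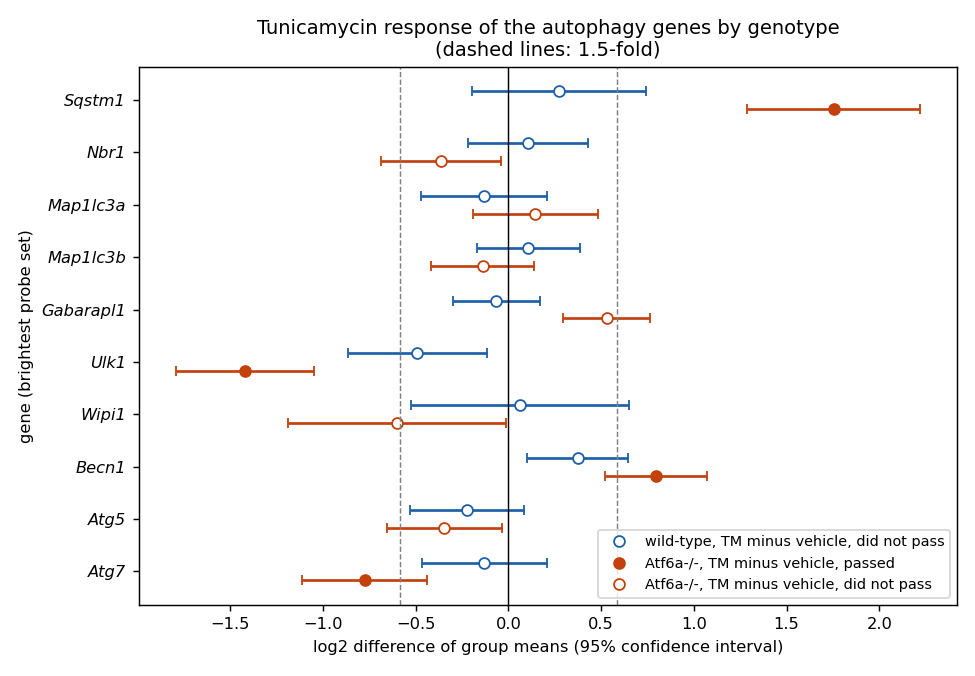
TM response of each autophagy gene (log2 difference of group means, TM minus vehicle, n = 3 per group, horizontal axis) with its 95% confidence interval, in wild-type (blue) and Atf6a-/- (red) mice, filled where the gene passed. Sqstm1 and Becn1 (higher) and Ulk1 and Atg7 (lower) passed in Atf6a-/- mice, and no gene passed in wild-type mice.

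Becn1 encodes Beclin 1, a subunit of the lipid kinase complex that makes PI3P. Its levels were 8.92, 9.02 and 9.005 in wild-type vehicle, 9.12, 9.07 and 9.01 in Atf6a-/- vehicle, 9.36, 9.52 and 9.19 in wild-type TM and 9.59, 9.91 and 10.08 in Atf6a-/- TM livers. The groups were ordered without overlap, from both vehicle groups through wild-type TM to Atf6a-/- TM. TM raised Becn1 1.74-fold in Atf6a-/- mice (0.80 ± 0.12, adjusted p = 3.66e-04), and the wild-type difference was 0.37 ± 0.12 (adjusted p = 0.111). Between genotypes after TM the difference of 0.51 ± 0.12 passed the test but was 1.42-fold (adjusted p = 0.0128), and the difference in response was 0.42 ± 0.18 (adjusted p = 0.183). Without wild-type TM animal 2 the difference after TM was 0.59 and passed both limits (adjusted p = 0.00777), as it did without Atf6a-/- TM animal 1 (0.64, adjusted p = 0.00280). The 5 Becn1 probe sets disagreed. The second brightest was called higher in Atf6a-/- livers after TM (0.60, adjusted p = 0.00686). Its Atf6a-/- response of 0.55 stayed under the fold limit (1.46-fold, adjusted p = 0.00731), and its wild-type response was -0.03, with overlapping groups. Of the others, 2 lay below the highest array median. With the mean of all 5 the Atf6a-/- difference was 0.36, under the fold limit. With arrays shifted by Btf3 and Ppia the Atf6a-/- response of the brightest probe set was 0.28 (adjusted p = 0.0726).

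Wipi1 encodes a protein that binds PI3P on the forming autophagosome. Its levels were 7.84, 8.15 and 8.15 in wild-type vehicle, 8.00, 8.06 and 8.42 in Atf6a-/- vehicle, 7.58, 8.90 and 7.85 in wild-type TM and 7.70, 7.42 and 7.56 in Atf6a-/- TM livers. Wild-type TM animal 2 was the highest of all 12, so that the wild-type TM group spanned most of the range of the others. No difference passed: the Atf6a-/- response was -0.60 ± 0.27 (adjusted p = 0.128) and the difference after TM -0.55 ± 0.27 (adjusted p = 0.218), which became -0.15 without that animal (adjusted p = 0.620). None of the 6 Wipi1 probe sets was called in any comparison.

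Atg7 and Atg5 belong to the ubiquitin-like conjugation machinery, ATG7 as its E1-like activating enzyme and ATG5 as part of the complex that promotes transfer of ATG8 proteins to lipid. Atg7 levels were 7.65, 7.60 and 7.67 in wild-type vehicle, 7.79, 7.48 and 7.78 in Atf6a-/- vehicle, 7.69, 7.22 and 7.63 in wild-type TM and 7.21, 6.79 and 6.73 in Atf6a-/- TM livers. The Atf6a-/- TM livers were the lowest 3, with animal 1 next to wild-type TM animal 2. TM lowered Atg7 1.71-fold in Atf6a-/- mice (-0.77 ± 0.15, adjusted p = 0.00210) and the wild-type difference was -0.13 ± 0.15 (adjusted p = 0.757). It was 1.52-fold lower in Atf6a-/- livers after TM (-0.60 ± 0.15, adjusted p = 0.0155), a call that was lost without wild-type TM animal 1 (-0.52) or 3 (-0.55) and without Atf6a-/- TM animal 2 (-0.55) or 3 (-0.51). The difference in response was -0.65 ± 0.22 and did not pass (adjusted p = 0.0897), and it passed without wild-type TM animal 2 (-0.79, adjusted p = 0.0202). With the mean of the 4 Atg7 probe sets the difference between genotypes after TM was -0.21 (adjusted p = 0.120), since the other 3 gave -0.13, -0.07 and -0.05, and the Atf6a-/- response was -0.46, under the fold limit. With arrays shifted by the spike-ins these were -0.40 (adjusted p = 0.138) and -0.29 (adjusted p = 0.141).

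Atg5 had levels of 8.71, 8.37 and 8.47 in wild-type vehicle, 8.98, 8.54 and 8.51 in Atf6a-/- vehicle, 8.44, 8.26 and 8.17 in wild-type TM and 8.47, 8.27 and 8.26 in Atf6a-/- TM livers. The Atf6a-/- TM livers lay below the Atf6a-/- vehicle livers, whereas wild-type TM and wild-type vehicle livers overlapped, as did both TM groups. Neither response passed, the wild-type one being -0.23 ± 0.14 (adjusted p = 0.468) and the Atf6a-/- one -0.35 ± 0.14 (adjusted p = 0.0950), and the difference after TM was 0.04 with a 95% interval from -0.26 to 0.35.

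**Figure D3:**
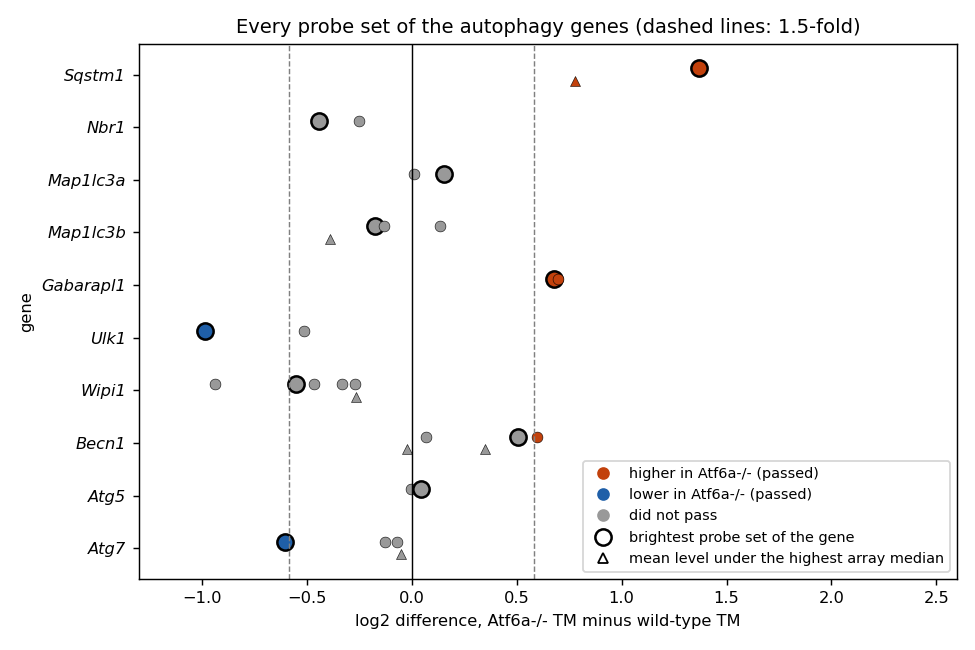
Difference between Atf6a-/- and wild-type livers after TM (log2, n = 3 per group, horizontal axis) for each of the 32 probe sets of the 10 genes, with the brightest probe set of a gene ringed and those with a mean under the highest array median drawn as triangles. Called probe sets are 5 higher and 2 lower, and no gene has called probe sets on both sides.

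Over the 32 probe sets, 3 rose and 3 fell in Atf6a-/- mice, 5 were higher and 2 lower between genotypes after TM, 2 were higher and 1 lower in the difference of the responses, and 0 were called in wild-type mice or between genotypes after vehicle. Of all 45037 probe sets, 5.22% were called in wild-type mice, 21.0% in Atf6a-/- mice, 14.3% between genotypes after TM, 0.00222% between genotypes after vehicle and 10.1% in the difference of the responses. Over the 12 livers, which fall into treatment groups, the level of Ulk1 ran against that of Becn1 (Pearson r = -0.97) and against Sqstm1 (r = -0.94). Of 8867 genes with a mean level of at least 6, those with the pattern most like a member over the 12 arrays were Rab6a, Lrrc41 and Nifk for Sqstm1 (r = 0.996, 0.992 and 0.992), Cdk17, Fcf1 and Eif4e2 for Gabarapl1 (0.975 to 0.969), Fn3k, Pafah2 and Slc47a1 for Ulk1 (0.981 to 0.978), Arfgap3, Ccdc115 and Cilk1 for Becn1 (0.985 to 0.982) and Il13ra1, Hdac6 and Chn2 for Atg7 (0.969 to 0.966). Likeness was lower for the members without a call, with Dhx16 leading for Nbr1 (0.878), Ryk for Map1lc3a (0.834), Ahcy for Map1lc3b (0.877), Apobec1 for Wipi1 (0.887) and Asb7 for Atg5 (0.891). These correlations share libraries and groups and are a description.

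Markers of some liver cell types also differed between the groups, and those of others did not pass the threshold. The log2 of the summed signal of 7 hepatocyte markers was 16.87 to 16.99 in wild-type vehicle, 16.73 to 17.01 in Atf6a-/- vehicle, 16.36 to 16.75 in wild-type TM and 15.76 to 16.07 in Atf6a-/- TM livers, and 5 of the 7 fell in Atf6a-/- mice. For 9 markers of Kupffer cells and macrophages it was 12.06 to 12.34, 12.13 to 12.66, 11.39 to 11.76 and 11.67 to 11.96 in the same order. In Atf6a-/- mice 2 of these were higher after TM, Cd68 and Marco, and 4 were lower, Clec4f, Vsig4, Adgre1 and Csf1r. Mean levels in Atf6a-/- vehicle, Atf6a-/- TM and wild-type TM livers were 6.31, 9.38 and 6.45 for Cd68 and 6.55, 8.13 and 8.17 for Marco. They were 9.45, 7.69 and 7.96 for Clec4f, 9.26, 7.02 and 7.43 for Vsig4, 7.84, 7.08 and 7.20 for Adgre1 and 10.59, 8.93 and 9.21 for Csf1r. For 5 neutrophil markers the log2 of the summed signal was 7.78 to 7.98, 7.63 to 7.82, 8.42 to 9.25 and 9.30 to 11.34 in the first order, 2 of the 5 rising in Atf6a-/- mice and Mpo being under the highest array median in all groups. S100a8 had levels of 10.39, 8.26 and 9.91 in Atf6a-/- TM and 7.85, 6.76 and 7.31 in wild-type TM livers, and no vehicle liver reached them. S100a9 was the other that rose, with means of 5.33 in Atf6a-/- vehicle and 9.07 in Atf6a-/- TM livers. The remaining neutrophil markers did not rise, with means in the same groups of 5.15 and 4.96 for Ngp, 6.53 and 6.47 for Elane and 3.87 and 3.82 for Mpo. In Atf6a-/- mice, where 28.0% of all genes were called, 1 of 6 lymphocyte, 2 of 6 endothelial and 1 of 2 red cell markers fell. There 0 of 6 stellate cell and fibroblast and 0 of 4 cholangiocyte markers passed. The part of these cells in the levels of the autophagy genes was not tested.

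Beyond the 10 genes, 98 of 100 listed genes of the pathway were measured in 8 lists. In wild-type mice 6 rose and 6 fell, in Atf6a-/- mice 21 rose and 27 fell, and after TM 11 were higher and 20 lower in Atf6a-/- livers. The 21 and 27 became 39 and 18 with the spike-ins and 12 and 49 with Btf3 and Ppia. None differed after vehicle in limma, where 3 had an unadjusted p under 0.05 (Atg16l1, Fundc1 and Ccpg1), and 7 responses were higher and 15 lower in Atf6a-/- than in wild-type mice. The shares called were 12.2% in the wild-type response, 49.0% in the Atf6a-/- response, 31.6% between genotypes after TM and 22.4% for the difference in response, beside the 7.31%, 28.0%, 19.7% and 14.3% of all genes given above. The list shares were not tested against those of all genes, which include genes of low signal. The lists were also chosen with earlier results of these data known. Their median differences were -0.06, -0.07, 0.06 and 0.05. By list, the share called in Atf6a-/- mice was 25% for the ULK1 complex, 27.3% for the ATG8 family and 35.3% for PI3P synthesis. It was 50% for receptors for autophagy of the ER, for fusion and for upstream regulators. For other cargo receptors it was 70% and for transcription factors 75%. Of the 48 called in Atf6a-/- mice 36 had several probe sets, in 24 of these another probe set was called the same way and in 1, Ccpg1, one was called the opposite way.

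In the ULK1 complex 1 of 4 genes rose, in both genotypes. Atg13, the subunit that mTORC1 phosphorylates, had levels of 7.97, 8.15 and 8.32 in wild-type vehicle, 8.23, 8.11 and 8.08 in Atf6a-/- vehicle, 9.58, 9.24 and 9.18 in wild-type TM and 9.74, 9.49 and 9.70 in Atf6a-/- TM livers. Both TM groups stood above both vehicle groups in this gene, by 1.19 ± 0.13 in wild-type mice (adjusted p = 2.21e-04) and 1.502 ± 0.13 in Atf6a-/- mice (adjusted p = 3.31e-06), and the genotypes did not differ past the threshold after TM (0.31, adjusted p = 0.136). Its 3 probe sets disagreed. One gave differences of -0.02 in wild-type and -2e-04 in Atf6a-/- mice, and another was called higher in Atf6a-/- livers after TM (0.85) and in the difference of the responses (0.90). In Atf6a-/- mice Atg13 rose and the kinase gene Ulk1 fell.

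Of 17 genes of PI3P synthesis, membrane supply and its effectors, none changed in wild-type mice, the largest difference being 0.43 for Wdr45, and 4 rose and 2 fell in Atf6a-/- mice. Vmp1, an ER protein needed for autophagosome formation, rose by 1.33 and Wipi2, a relative of Wipi1, by 0.95. Atg14, the subunit that directs the Beclin 1 complex to autophagy, fell by 1.39 and Zfyve1, whose product DFCP1 marks the ER sites where autophagosomes begin, fell by 1.86. Atg14 had levels of 7.27, 7.52 and 7.14 in wild-type vehicle, 7.31, 7.21 and 6.91 in Atf6a-/- vehicle, 7.73, 7.11 and 7.70 in wild-type TM and 5.76, 6.07 and 5.42 in Atf6a-/- TM livers. Every Atf6a-/- TM liver was below all others. After TM the genotypes differed by -1.76 for Atg14 (adjusted p = 7.38e-05), -1.26 for Zfyve1 (adjusted p = 4.66e-04), 1.21 for Vmp1 (adjusted p = 1.96e-04) and 0.64 for Wipi2 (adjusted p = 0.00289). Becn1 and Atg14, partners in 1 complex, had differences of opposite sign in Atf6a-/- mice.

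Of 11 further genes of the ATG8 family and its conjugation machinery, 2 fell in both genotypes and 1 rose in Atf6a-/- mice. The share called in Atf6a-/- mice, 27.3%, was near the 28.0% of all genes. Atg16l1, which places the ATG12-ATG5 conjugate on the membrane, fell by 0.71 in wild-type mice and by 0.70 in Atf6a-/- mice, and its relative Atg16l2 fell by 0.94 and by 1.20. Atg12, which is joined to ATG5, rose by 0.89 in Atf6a-/- mice (adjusted p = 8.21e-04) and was 0.65 higher in Atf6a-/- livers after TM (adjusted p = 0.00992).

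Of 10 other cargo receptors and adaptors, 2 rose and 5 fell in Atf6a-/- mice and 1 rose in wild-type mice. Bnip3, a mitophagy receptor, had levels of 12.36, 12.15 and 12.01 in wild-type vehicle, 12.46, 12.06 and 11.74 in Atf6a-/- vehicle, 12.13, 11.22 and 11.78 in wild-type TM and 8.91, 8.07 and 9.29 in Atf6a-/- TM livers. It fell by 3.33 ± 0.30 in Atf6a-/- mice (adjusted p = 5.22e-06), with no overlap with any other group. Wdfy3, which encodes the adaptor ALFY, fell by 1.97 ± 0.13 there (adjusted p = 4.13e-07). Fundc1, another mitophagy receptor, rose in both genotypes, by 1.63 and by 2.19, and was 1.63 higher in Atf6a-/- livers after TM (adjusted p = 0.00123). Its level was also 1.08 higher in Atf6a-/- livers after vehicle, without passing after adjustment (limma, adjusted p = 1). Stbd1, a glycogen receptor, rose by 1.58 in Atf6a-/- mice (adjusted p = 0.00436).

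**Figure D4:**
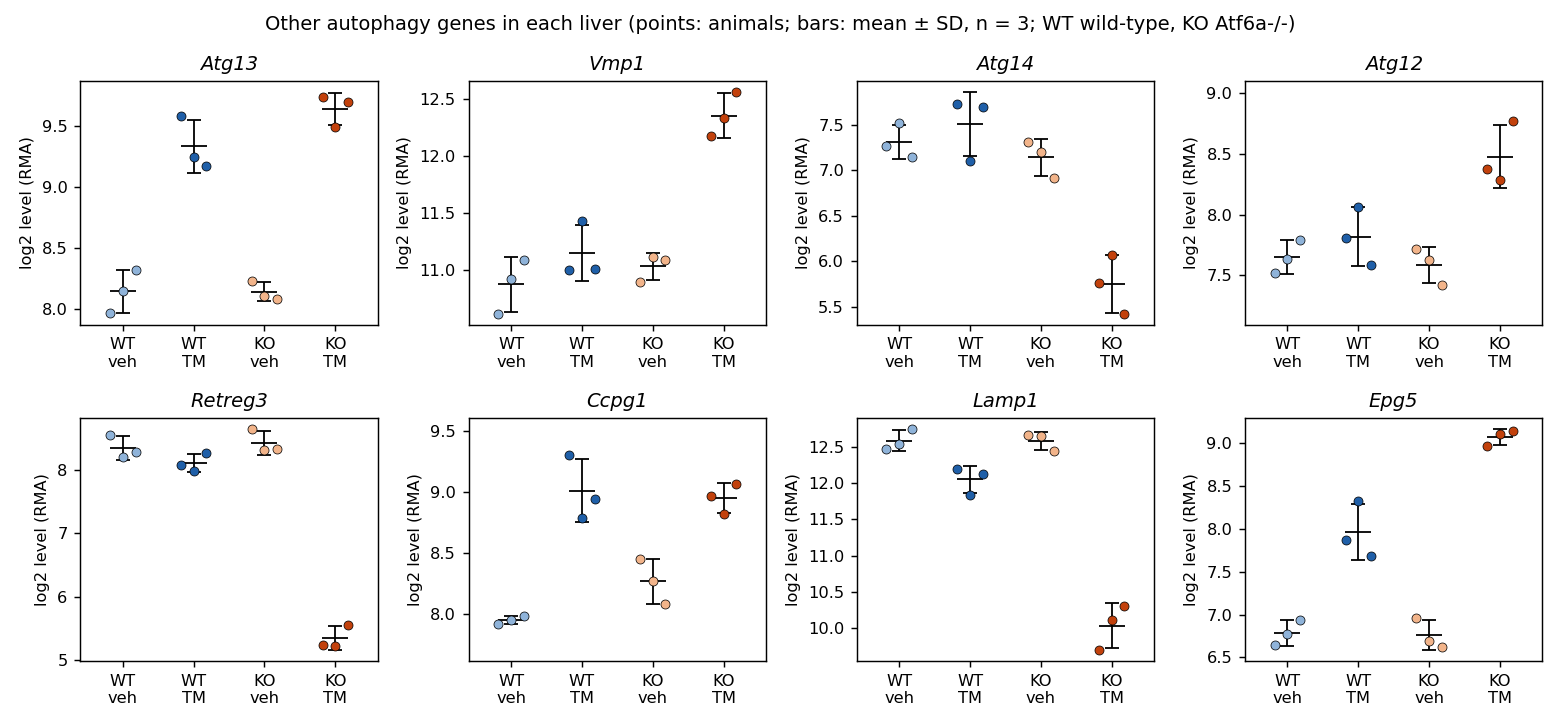
Log2 level (vertical axis, a separate range for each gene) of 8 other autophagy genes in each liver, with points for animals and bars for the group mean ± SD (n = 3). Retreg3, Lamp1 and Atg14 are lowest in the 3 Atf6a-/- TM livers, Vmp1 and Epg5 are highest there, and Atg13 is raised in both TM groups.

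Of 8 receptors for autophagy of the ER itself, 1 rose and 3 fell in Atf6a-/- mice. Retreg3, which encodes an ER membrane protein with an LC3 binding site, had levels of 8.57, 8.21 and 8.29 in wild-type vehicle, 8.66, 8.32 and 8.34 in Atf6a-/- vehicle, 8.08, 7.99 and 8.27 in wild-type TM and 5.24, 5.22 and 5.56 in Atf6a-/- TM livers. The Atf6a-/- TM livers lay below all 9 others, and the level fell by 3.10 ± 0.14 (adjusted p = 3.18e-08). Of its 3 probe sets 2 were called lower there and the other gave -0.10. Atl3, an atlastin that shapes ER tubules, fell by 2.02 ± 0.18 (adjusted p = 5.22e-06). Ccpg1, a receptor induced by ER stress, rose by 1.06 ± 0.14 in wild-type mice (adjusted p = 6.43e-04) and by 0.68 ± 0.14 in Atf6a-/- mice (adjusted p = 0.00210), but its other probe set gave a called difference of -1.35 in Atf6a-/- mice, so that its direction there is unsettled. After TM, 0 of the 8 were higher and 3 were lower in Atf6a-/- livers, which is 37.5% called against 19.7% of all genes. These shares were not tested against each other.

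Of 16 genes of autophagosome-lysosome fusion, 1 rose and 2 fell in wild-type and 3 rose and 5 fell in Atf6a-/- mice. Lamp1, a major protein of the lysosomal membrane, had levels of 12.48, 12.54 and 12.75 in wild-type vehicle, 12.66, 12.65 and 12.44 in Atf6a-/- vehicle, 12.19, 11.83 and 12.12 in wild-type TM and 9.69, 10.11 and 10.30 in Atf6a-/- TM livers. It fell by 2.55 ± 0.16 in Atf6a-/- mice (adjusted p = 2.57e-07), and Lamp2 fell by 1.49 ± 0.21 (adjusted p = 1.90e-04). Epg5, a tethering factor for autophagosomes and lysosomes, rose in both genotypes, by 1.17 ± 0.16 in wild-type and 2.31 ± 0.16 in Atf6a-/- mice, and its level was 1.11 higher in Atf6a-/- livers after TM (adjusted p = 3.44e-04). The SNARE gene Ykt6 rose by 0.74 in Atf6a-/- mice (adjusted p = 0.00365), and the adaptor gene Plekhm1 and the SNARE gene Stx17 fell by 0.77 and by 0.62 in wild-type mice.

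**Figure D5:**
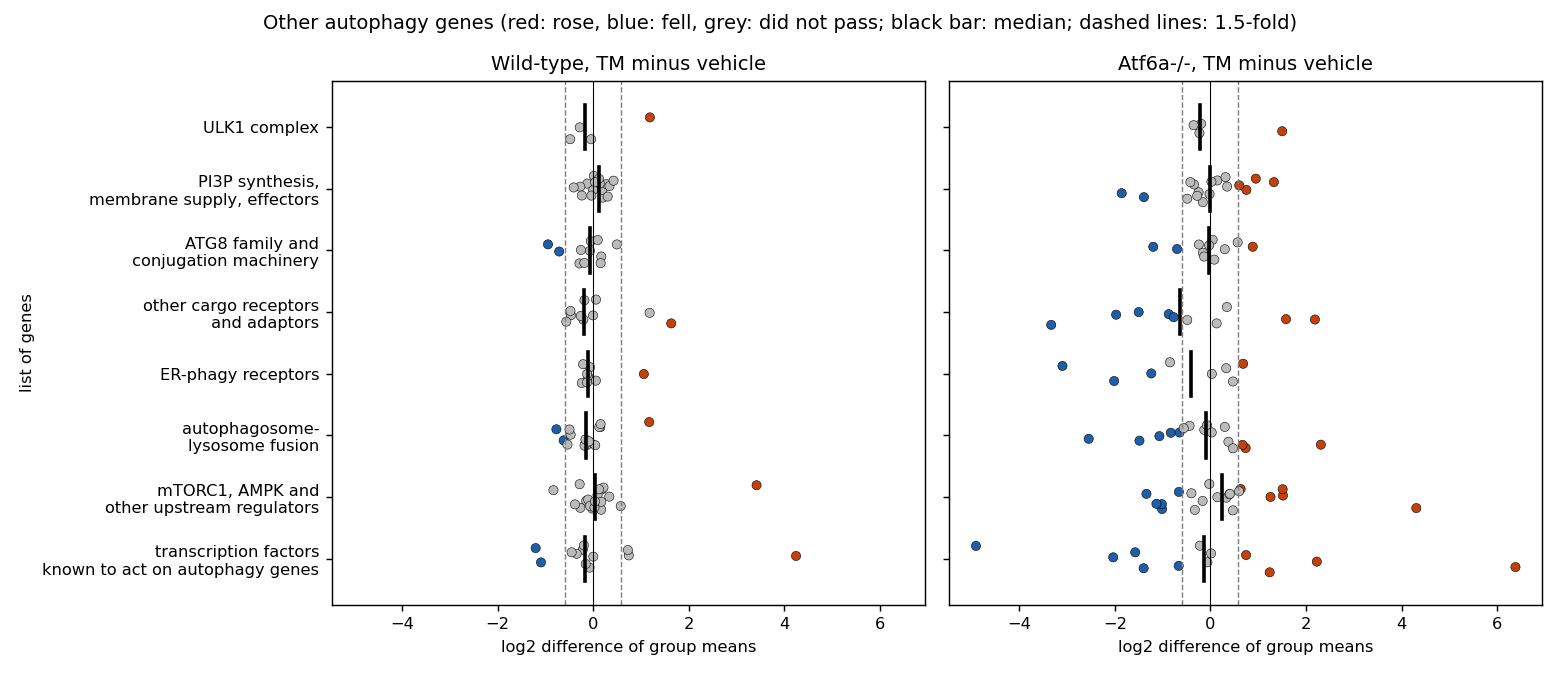
TM response (log2 difference of group means, n = 3 per group, horizontal axis) of 98 other autophagy genes in 8 lists, in wild-type mice (left) and Atf6a-/- mice (right), with red points for genes that rose, blue for those that fell and black bars for list medians. Called genes are 6 higher and 6 lower in wild-type mice, and 21 higher and 27 lower in Atf6a-/- mice.

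Among 20 regulators upstream of ULK1, 1 rose in wild-type and 5 rose and 5 fell in Atf6a-/- mice. Trib3, an inhibitor of AKT induced by ATF4 and CHOP, rose by 3.42 ± 0.35 in wild-type mice and by 4.31 ± 0.35 in Atf6a-/- mice. Ddit4, which restrains mTORC1, rose by 1.52 in Atf6a-/- mice (adjusted p = 0.00509). Prkaa2, a catalytic subunit of AMPK, fell by 1.34 (adjusted p = 2.87e-04) and Flcn, a regulator of Rag GTPases, fell by 1.13 there (adjusted p = 0.00147). After TM Rraga, which encodes a Rag GTPase, was 1.23 higher in Atf6a-/- livers (adjusted p = 4.83e-04), and Deptor, an inhibitor of mTOR, differed by -1.29 (adjusted p = 0.00321).

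Of 12 transcription factors known to act on autophagy genes, 4 rose and 5 fell in Atf6a-/- mice, and 1 rose and 2 fell in wild-type mice. Ddit3 (CHOP) rose by 4.25 ± 0.54 in wild-type mice and by 6.38 ± 0.54 in Atf6a-/- mice, and Atf4 rose by 2.23 ± 0.23 in Atf6a-/- mice. Ppara, which activates fasting genes, had levels of 11.14, 11.32 and 11.52 in wild-type vehicle, 11.14, 11.30 and 11.10 in Atf6a-/- vehicle, 10.14, 9.92 and 10.31 in wild-type TM and 6.24, 6.68 and 5.90 in Atf6a-/- TM livers. It fell in both genotypes, by 1.20 in wild-type mice and by 4.91 in Atf6a-/- mice, and the bile acid receptor gene Nr1h4 fell by 1.09 and by 2.03. After TM Nfe2l2, whose product NRF2 is known to activate Sqstm1, was 1.09 higher in Atf6a-/- livers (adjusted p = 5.85e-04), and Foxo3 differed by -1.24 (adjusted p = 8.58e-06). The part of any of these factors in the levels of the 10 genes was not tested.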

How the data were processed

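Affymetrix arrays were hybridised with liver RNA of 12 mice, 3 in each of 4 groups. Per the labels, the authors processed the scans with affy and limma by RMA, so that the deposited values are log2 signal per probe set, from 2.38 to 14.91, with versions not given in the sources used here. Of 45101 features 64 controls were left out. Of the other 45037 probe sets 34945 have 1 gene symbol, 932 several and 9160 none, and symbols are those of the platform annotation. Arrays have no read depth, so that 3 animals per group limit the precision, and no array pair correlated above 0.995.

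One mean per group was fitted to all 12 arrays with limma 3.58.1 (R 4.3.3), with Benjamini-Hochberg adjustment over the 45037 probe sets. A gene was taken at its brightest probe set and called at an adjusted p under 0.05 and over 1.5-fold. The fit was tested on simulated data. Named genes were the 10 members, the targeted gene Atf6, the 3 genes most like each member, and per list and comparison at most 2 called genes at either end of the range of differences, or the most different gene where none was called. S100a8 was singled out after its values were seen. The members, lists and tests were chosen with earlier results of these data known. The pathway lists were the ULK1 complex, PI3P synthesis, ATG8 conjugation, cargo receptors, ER-phagy receptors, fusion, upstream regulators and transcription factors, and Optn and Bnip3l were not analysed here. Marker lists covered parenchyma (hepatocytes, cholangiocytes), blood and immune cells (red cells, lymphocytes, neutrophils, Kupffer cells and macrophages) and the sinusoid (stellate cells with fibroblasts, endothelial cells). Alternatives were other normalizations and shifts, dim probe sets left out, other summaries of probe sets, a variance trend, array weights, subsets of groups, a replicate block, an Xist covariate, no minimum fold, the methods' t-test and leaving out each animal. Promoters were read with pandas 2.3.3 (Python 3.11.15).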

Additional observations from a re-analysis of the deposited data

Results flagged for a closer look

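The TM response differed between the genotypes, by the test of the difference itself in limma (Atf6a-/- response minus wild-type response, 3 animals per group), for 3 of the 10 autophagy genes and for 17 of the other pathway genes named, and for the targeted gene Atf6 (1.75, adjusted p = 3.90e-04). Most named pathway genes were picked for large called differences in these same groups, so the 17 gives no share. Over the whole lists 22 of 98 genes were called (22.4%), against 14.3% of all genes. These shares were not tested against each other, and the lists were chosen with earlier results of these data known. Sqstm1 differed by 1.48 (adjusted p = 0.00828), Gabarapl1 by 0.60 (adjusted p = 0.0273) and Ulk1 by -0.93 (adjusted p = 0.0291). The call was lost in 13 of 25 settings for Gabarapl1, in 10 of 25 for Ulk1 and, for Sqstm1, with probe sets without a suffix.

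Among genes of PI3P synthesis and its effectors, Atg14 differed by -1.59 (adjusted p = 0.00370), Zfyve1 by -1.62 (adjusted p = 0.00213), Vmp1 by 1.05 (adjusted p = 0.00991) and Wipi2 by 0.61 (adjusted p = 0.0470). Among receptors and adaptors, Bnip3 differed by -2.87 (adjusted p = 0.00133), Wdfy3 by -1.499 (adjusted p = 3.36e-04), Retreg3 by -2.86 (adjusted p = 7.87e-06) and Atl3 by -1.89 (adjusted p = 7.68e-04). Of the fusion genes, Epg5 differed by 1.14 (adjusted p = 0.00623) and Lamp1 by -2.01 (adjusted p = 1.91e-04).

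Among upstream regulators, Prkaa2 differed by -1.06 (adjusted p = 0.0360) and Rraga by 1.23 (adjusted p = 0.00954). Among transcription factors, Foxo3 differed by -1.24 (adjusted p = 3.03e-04), Atf4 by 1.499 (adjusted p = 0.0121), Nfe2l2 by 1.20 (adjusted p = 0.00660), Ppara by -3.70 (adjusted p = 7.81e-06) and Nr1h4 by -0.94 (adjusted p = 0.0155).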

How the results depend on the processing

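Over 50 results of single members and 1125 alternative settings, 1009 kept their direction and side of the threshold, no called value changed sign, 45 uncalled ones did, 43 calls were lost and 28 gained. The calls of Sqstm1 and Ulk1 in Atf6a-/- mice and between genotypes after TM were kept in all settings, except between genotypes after TM in the methods' t-test after Benjamini-Hochberg adjustment, which called 0 members and 5 other genes between genotypes after TM and 0 other genes in wild-type mice. Unadjusted, it called 1 other gene after vehicle.

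With the spike-ins 1 member, Becn1, changed in wild-type mice (0.72, adjusted p = 0.0108). With Btf3 and Ppia 7 members changed in Atf6a-/- mice, 5 in the difference of responses, and 50 other genes differed after TM. The mean of probe sets left 2 members in Atf6a-/- mice, and probe sets without a suffix left 1 in the difference of responses (Nbr1 has none, and Sqstm1 is then read at its dim probe set). Leaving out 1 animal gave 2 to 5 members between genotypes after TM and 1 to 4 in the difference of responses. Of 18 correlations between deviations of same-numbered animals, 14 were positive and 8 over 0.1 (-0.18 to 0.37), and in 20 of 36 comparisons of an animal with another group its best match had its number. Each of these comparisons had 3 animals to choose from. The labels name no source shared by number, so the animals were not treated as pairs in the main fit. Xist was high in animal 1 of every group but wild-type TM, and what same-numbered animals may share was not tested. With the replicate block, the members called were 0 in wild-type mice, 4 in Atf6a-/- mice, 4 after TM, 0 after vehicle and 4 in the difference of responses, where Atg7 was gained (-0.65, adjusted p = 0.0404), and it changed no other member call.

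Uncalled values that changed sign were as follows. With the spike-ins, the wild-type response was 0.12 for Atg5, 0.22 for Atg7, 0.29 for Gabarapl1 and 0.22 for Map1lc3a, the Atf6a-/- response was 0.13 for Atg5, 0.34 for Map1lc3b and 0.12 for Nbr1, Map1lc3b was 0.0298 after TM, Ulk1 0.0206 after vehicle and Atg5 0.0096 in the difference of responses. With Btf3 and Ppia, Wipi1 was -0.0103 in wild-type and Map1lc3a -0.37 in Atf6a-/- mice, Atg5 was -0.39 and Map1lc3a -0.28 after TM, and Becn1 was -0.0184 and Map1lc3a -0.16 in the difference of responses. With array weights, Nbr1 was -0.0041 and Wipi1 -0.14 in wild-type mice and Atg7 -0.0176 after vehicle. Without suffixed probe sets, Becn1 was -0.0292 in wild-type mice, Map1lc3a -0.0462 and Map1lc3b 0.0076 in Atf6a-/- mice and Sqstm1 0.13 after vehicle. With the mean of probe sets, Map1lc3b was 0.0366 in Atf6a-/- mice, and Nbr1 -0.0283 and Sqstm1 0.0095 after vehicle. Quantile normalization again gave Map1lc3b 0.0047 in Atf6a-/- mice and Atg5 -0.0174 after TM, where cyclic loess gave -0.0607 and the Xist covariate -0.0595. Leaving out 1 animal gave Atg5 -0.0256 to 0.118 after TM and -0.22 to 0.0284 in the difference of responses, in wild-type mice Atg7 -0.22 to 0.0165, Nbr1 -0.0084 to 0.26 and Wipi1 -0.33 to 0.33, and after vehicle Atg7 -0.0121 to 0.14, Map1lc3b -0.0319 to 0.18, Nbr1 -0.0868 to 0.11, Sqstm1 -0.23 to 0.0315, Ulk1 -0.11 to 0.0096 and Wipi1 -0.0158 to 0.20. The cause was not tested. Low signal, near or under the highest array median, limits the dim probe sets.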
